A study of Mus musculus with 2 samples.

Results

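Gata1, Gata2 and Gata3 encode the 3 GATA zinc finger factors of blood cells, and the chromatin around them was described here from peaks of ATAC-seq, an assay in which a transposase cuts open DNA and inserts sequencing adapters. The cells were G1E-ER4, a male mouse erythroid progenitor line on the C57BL/6J background per the labels. The line is known to lack a working Gata1 gene and to carry a transgene that joins GATA1 to the hormone-binding part of the estrogen receptor. Both libraries came from cells treated with 10 nM 17beta-estradiol, which activates the fusion protein, for 24 hours, with 50000 cells each, and they are biological replicates 1 and 2 of 1 group. There were no untreated cells, so no value is a change caused by estradiol, and there is no test between conditions. The members were the 3 genes of 21911 protein-coding genes in the annotation, with all accessible regions whose summit lay within 100 kb of a gene body. The authors' conservative list, which keeps peaks that recur in both replicates, gave 18 of 20080 regions, of which 9 lay around Gata1, 5 around Gata2 and 4 around Gata3.

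GATA factors bind DNA at GATA motifs through a pair of zinc fingers. GATA2 maintains blood stem and progenitor cells, GATA1 drives red cell, platelet and mast cell maturation, and GATA3 is best known as the T helper and innate lymphoid factor. In maturing red cell precursors GATA1 is known to replace GATA2 at the regulatory elements of the Gata2 gene, which is then switched off, and both genes are controlled by enhancers named after their distance from the start site.

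Coordinates are on mm10. Gata1 (ENSMUSG00000031162.14) occupied chrX:7959260-7978071 on the minus strand, with its main start at 7967910. Gata2 (ENSMUSG00000015053.14) occupied chr6:88193891-88207032 on the plus strand, with its distal start at 88193891 and its second start at 88198334. Gata3 (ENSMUSG00000015619.10) occupied chr2:9857078-9890034 on the minus strand, with starts at 9878600 and 9890034. Gata1 lies on the X chromosome and the line is male, but copy number was not measured and no value was corrected for it.

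The sequences that follow are those the results turn on, taken from the RefSeq copy of GRCm38.p6. They span 100 bp either side of a summit, or the whole region for the Gata2 intron and the Gata1 exon, written 5′ to 3′ on the strand of the gene. Capitals mark GATA motifs in the first 6, where the motif is GATA with A or T before it and A or G after it, on either strand. In the Gata2 intron element they mark the longer E-box GATA composite (CTG, then 8 or 9 bases, then GATAA, on either strand), which contains a GATA motif. In the Gata1 exon 5 region they mark the exon.
Gata1 upstream element (chrX:7971355-7971555, minus strand): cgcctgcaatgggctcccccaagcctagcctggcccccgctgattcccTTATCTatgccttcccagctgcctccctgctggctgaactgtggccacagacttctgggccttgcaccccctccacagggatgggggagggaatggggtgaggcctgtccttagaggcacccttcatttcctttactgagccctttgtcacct
Gata1 promoter (chrX:7967867-7968067, minus strand): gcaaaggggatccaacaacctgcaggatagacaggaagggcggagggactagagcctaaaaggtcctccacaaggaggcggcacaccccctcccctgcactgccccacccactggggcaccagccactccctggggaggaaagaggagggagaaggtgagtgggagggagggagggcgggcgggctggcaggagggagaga
Gata2 far upstream element (chr6:88116443-88116643, plus strand): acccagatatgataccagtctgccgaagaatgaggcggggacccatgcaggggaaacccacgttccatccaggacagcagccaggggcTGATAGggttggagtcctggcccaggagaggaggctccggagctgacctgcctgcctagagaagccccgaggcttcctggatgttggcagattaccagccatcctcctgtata
Gata2 near upstream element (chr6:88189657-88189857, plus strand): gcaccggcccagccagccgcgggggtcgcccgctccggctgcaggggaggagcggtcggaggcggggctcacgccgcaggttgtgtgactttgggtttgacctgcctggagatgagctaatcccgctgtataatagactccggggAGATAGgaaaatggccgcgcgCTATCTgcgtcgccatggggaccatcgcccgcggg
Gata2 second promoter (chr6:88198524-88198724, plus strand): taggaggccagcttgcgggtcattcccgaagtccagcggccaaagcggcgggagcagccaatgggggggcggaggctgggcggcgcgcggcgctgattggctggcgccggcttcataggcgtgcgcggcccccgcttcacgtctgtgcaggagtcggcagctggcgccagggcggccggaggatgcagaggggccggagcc
Gata3 upstream region (chr2:9879585-9879785, minus strand): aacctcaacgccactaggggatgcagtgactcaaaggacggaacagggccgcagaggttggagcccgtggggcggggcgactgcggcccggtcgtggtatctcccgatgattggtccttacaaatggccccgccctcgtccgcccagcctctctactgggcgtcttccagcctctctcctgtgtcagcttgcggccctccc
Gata2 intron element (chr6:88203130-88203300, plus strand): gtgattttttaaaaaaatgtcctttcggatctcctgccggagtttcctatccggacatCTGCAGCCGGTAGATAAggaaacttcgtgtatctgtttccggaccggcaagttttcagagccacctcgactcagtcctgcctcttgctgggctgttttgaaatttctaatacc
Gata1 exon 5 region (chrX:7960560-7960721, minus strand): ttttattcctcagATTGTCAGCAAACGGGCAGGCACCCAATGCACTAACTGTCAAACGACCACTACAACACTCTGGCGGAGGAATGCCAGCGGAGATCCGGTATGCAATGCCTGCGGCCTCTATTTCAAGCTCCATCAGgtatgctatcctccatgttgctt

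The upstream elements of Gata1 and Gata2 printed here thus held GATA motifs near the summit. The Gata1 element held 1 at −52 bp from its summit and the far Gata2 element 1 at −12 bp. The near Gata2 element held 2, 45 and 66 bp past the summit, counted to the first base of each motif. The Gata1 promoter, the second Gata2 promoter and the Gata3 upstream region held no GATA motif in these windows. Base composition differed: the second Gata2 promoter was 73.6% GC with 23 CpG dinucleotides and the near Gata2 element held 21, while the Gata1 upstream element and the Gata1 promoter held 2 and 4. The median promoter region of the conservative list held 16 CpG and the median distal region 3.

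At Gata1, the strongest region of the gene itself lay upstream and not at the start site. Its signal, the authors' enrichment value per peak, was 11.8 at chrX:7971094-7971741, with the summit at −3.545 kb from the main start, in an intron of the longer annotated transcript. This signal stood at percentile 58.9 of the conservative list, where 100 is the strongest region. Replicate 1 gave a signal of 10.3 and replicate 2 a signal of 9.96, and both libraries called the region in their own lists that passed an irreproducible discovery rate (IDR) of 0.05. The IDR estimates the share of peaks that do not recur, between replicates in the conservative list and between random splits of the reads, called pseudoreplicates, within a library. The position is that of the described enhancer mHS-3.5, a hypersensitive site known to drive blood cell expression in mouse transgenes.

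The promoter of Gata1 was weaker than this element. The region at chrX:7967831-7968152, with its summit at −57 bp from the main start, had a signal of 7.02, at percentile 15.2. Replicate 1 gave it a signal of 6.82 and replicate 2 one of 6.13. It was called in the own list of replicate 2, with a within-library IDR of 0.0217, and not in that of replicate 1, with 0.303, although its signal stood at percentile 49.97 of the pseudoreplicated list of replicate 1 and at percentile 42.0 of that of replicate 2. In the conservative list and in both libraries the upstream element stood above the promoter. The start of the longest transcript, at −10.161 kb, had no region within 1 kb in any of the 8 lists compared. These were the conservative list, a list from pooled pseudoreplicates, a longer replicated list, an older archived list, and for each library its own IDR list and a longer pseudoreplicated one.

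At Gata2, too, both upstream regions of the conservative list had more signal than the start sites. The region at chr6:88116299-88117146, at −77.348 kb from the distal start, had a signal of 10.4 at percentile 47.8, and replicate 1 gave 8.70 against 10.5 in replicate 2. Both libraries called it in their own lists. It lies at the position of the −77 enhancer, which is known to drive Gata2 in myeloid and erythroid progenitors. The region at chr6:88189531-88189982, at −4.134 kb and inside the long noncoding RNA gene Gm38708, had a signal of 9.26 at percentile 37.3. Its signals were 8.39 in replicate 1 and 7.39 in replicate 2, and only replicate 2 called it in its own list, with a within-library IDR of 0.0351 against 0.209 in replicate 1. It is the region nearest to the described −3.9 element, 1 of several sites where GATA1 is known to replace GATA2.

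The start sites of Gata2 carried little signal. No region of the conservative list had its summit within 1 kb of the distal start. The second start had a region at chr6:88198242-88198741, 290 bp inside the gene, with a signal of 4.90 at percentile 3.03. Its signals were 4.36 in replicate 1 and 4.45 in replicate 2, and neither library called it in its own list, with within-library IDR values of 0.482 and 0.486. In the archived list, the longest and least strict of the 8, regions at chr6:88193922-88194057 and chr6:88194499-88194595 stood 84 and 655 bp inside the distal start, with signals of 3.09 and 3.27. The median signal of that list was 3.65, so both lay below it. Since the libraries are bulk, fewer cells with an open start and less opening per cell cannot be told apart.

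Gata3 showed the strongest region of any of the 3 genes. At chr2:9879317-9879922, at −1.085 kb from the start at 9878600 and in an intron of the longer transcript, the signal was 19.9, at percentile 95.0. Replicate 1 gave 18.6 and replicate 2 gave 18.0, and both called it. It fell just past the 1 kb limit of the promoter rule, and under a limit of 2 kb it counted as a promoter region. The region over the start itself, chr2:9878369-9878753, had a signal of 6.29 at percentile 9.94, with 5.35 in replicate 1 and 6.40 in replicate 2, and neither library called it. A region of 903 bp at chr2:9888898-9889800, 423 bp inside the upstream start, had a signal of 12.01 at percentile 60.6, with 11.3 in replicate 1 and 10.9 in replicate 2, and both called it. The fourth, chr2:9903894-9904255, lay at −13.976 kb from that start, with a signal of 8.28. It was called by neither library and was absent from the list made from pooled pseudoreplicates.

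**Figure D1:**
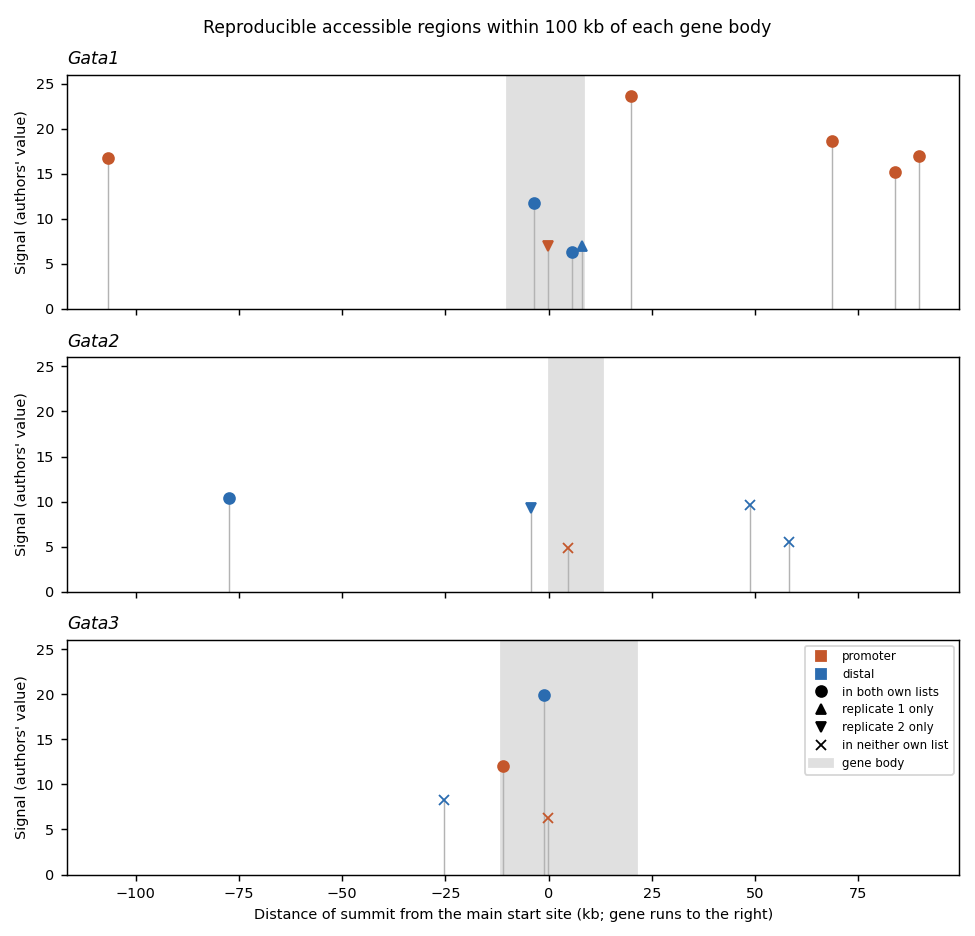
Signal (the authors' value, vertical axis) of the 18 regions of the conservative list against the distance of the summit from the main start of each gene in kb. Colour gives promoter or distal class, marker shape the own lists that held the region, and the grey band the gene body. The regions within the Gata1 and Gata2 gene bodies lie at 11.8 or below, and the Gata3 region at −1.085 kb reaches 19.9.

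Set against all 21911 protein-coding genes, the 3 genes had as many neighbouring regions as the median gene or more, and promoter regions that ranked below the median under the 1 kb rule. A promoter region was found in the conservative list for 3 of the 3 members, and for 41.8% of all protein-coding genes. The strongest promoter region stood at percentile 15.2 for Gata1, 3.03 for Gata2 and 60.6 for Gata3, while the median gene with a promoter region stood at 73.1. For Gata3 the direction turns with the rule, since under a limit of 2 kb the region at −1.085 kb, at percentile 95.0, was its strongest promoter region. Gata1 had 9 regions within 100 kb, Gata2 5 and Gata3 4, against a median of 4 over all genes, and 18.7%, 42.9% and 51.5% of genes had at least as many. Of distal regions Gata1 had 3, Gata2 4 and Gata3 2, against a median of 1, and 31.3%, 21.1% and 45.4% of genes had at least as many. Of the 3 of Gata1, 2 had their summit in its coding exons, where reads of the transgene cannot be told apart. None of these counts was rare.

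Of the 9 regions around Gata1, 5 were promoters of its neighbours, and each was stronger than any region of Gata1. They belong to Hdac6, a tubulin deacetylase (23.6, percentile 99.0), Pqbp1, a polyglutamine-binding protein (18.6), Pim2, a serine/threonine kinase (17.0), Suv39h1, a histone H3 lysine 9 methyltransferase (16.7), and Slc35a2, a nucleotide sugar transporter (15.2). Both libraries called all 5 in their own lists. The Pqbp1 region was also a promoter region of Timm17b, and in the own list of replicate 1 its summit lay at −36 bp from the Timm17b start. The Gata2 and Gata3 windows held no promoter region of another protein-coding gene. The remaining Gata2 regions, at chr6:88242616-88242900 (9.56) and chr6:88251839-88252633 (5.51), lay in introns of the chaperone gene Dnajb8, and neither library called them. The outermost region inside the window stood 96.668 kb from Gata1, 77.348 kb from Gata2 and 13.976 kb from Gata3, and the first outside stood at 117.574, 109.439 and 158.627 kb.

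Of the 18 regions, 10 were called in the own lists of both libraries, against 60.7% of the whole conservative list, and 5 in neither, against 21.4%. The remaining 3 were called in 1 library. All 5 regions called in neither library belonged to the Gata2 and Gata3 windows, with 3 and 2. Counts per library were 9 and 9 regions for Gata1 in the own lists of replicates 1 and 2, 1 and 2 for Gata2, and 2 and 2 for Gata3. Over all 18 regions the shares are close to the background, but they differed between the windows. Both libraries called 7 of the 9 regions around Gata1, 1 of the 5 around Gata2 and 2 of the 4 around Gata3. Of the 7 around Gata1, 5 were the promoters of its neighbours.

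**Figure D2:**
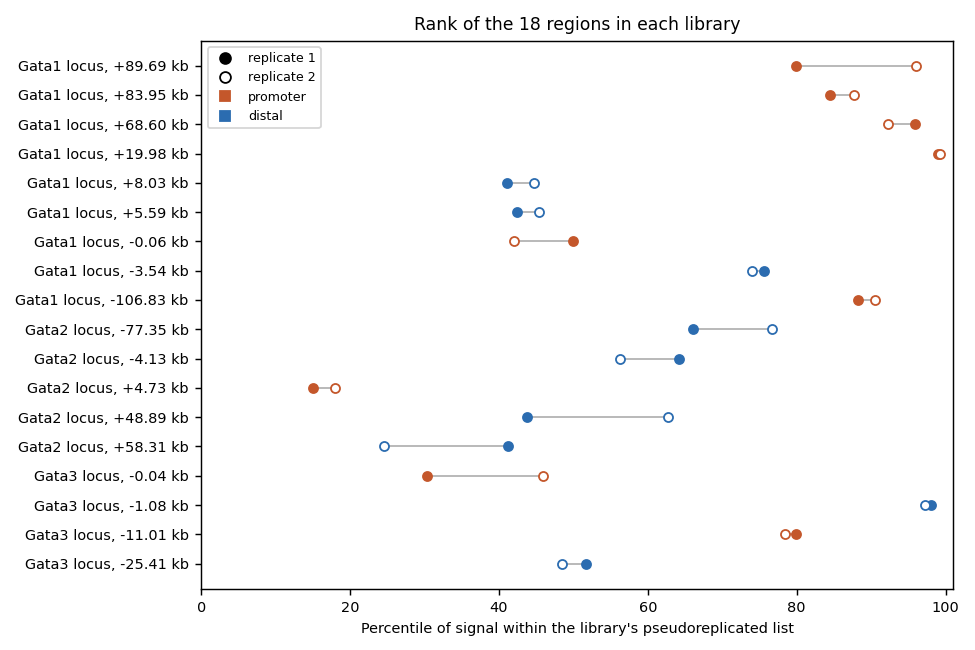
Percentile of the signal of each of the 18 regions (horizontal axis) within the pseudoreplicated list of replicate 1 (filled) and replicate 2 (open), labelled by the distance from the main start. The Hdac6 promoter at +19.98 kb stands at 99.0 and 99.3 and the second Gata2 promoter at +4.733 kb at 15.0 and 17.9.

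GATA motifs were found in 7 of the 18 regions within 100 bp of the summit. Among the 9 distal regions 5 held one, against 50.9% of distal regions in the whole list, and among the 9 promoter regions 2 did, against 13%. Of the 5, 1 was the region over exon 6 of Gata1, where reads of the transgene could also fall. The distal share is close to the background. None of the 18 held the E-box GATA composite, against 1140 of the 20080 regions of the whole list. By class, 9.58% of distal regions and 126 of 9497 promoter regions of that list held it. In the archived list it was in 2 of 30 regions around Gata1, 3 of 33 around Gata2 and 0 of 22 around Gata3. A match describes letters in a window and is not evidence of binding.

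Described enhancers of the genes were looked for by distance, taking a summit within 1 kb of the named position in each of 8 lists. The Gata1 site mHS-3.5 and the Gata2 −77 element were present in all 8. The −3.9 element of Gata2 was present in all but the own list of replicate 1. The Gata1 site mHS-25, a far upstream enhancer, had a region at chrX:7992793-7992996 with the summit at −24.99 kb. Its signal was 7.33 in the replicated list, 6.35 in replicate 1 and 5.27 in replicate 2, and no list under the IDR threshold held it. Unlike the upstream elements printed above, it held no GATA motif within 100 bp of its summit. The intron site mHS+3.5 had a region with a signal of 3.10 in the replicated list, at percentile 3.87. Its summit lay at −103 bp from the start of a short transcript, so the rule called it a promoter. The archived list held it with a signal of 4.13, at percentile 63.7. Of the lists of single libraries, only the pseudoreplicated list of replicate 1 held it, with 3.36 at percentile 3.07.

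The remaining Gata2 elements had regions in the longer lists alone. The +9.5 element, an intron enhancer known to be needed for blood stem cells to emerge, had 2 archived regions within 1 kb of its named position. The one at chr6:88203405-88203628, with its summit at 9.593 kb, had a signal of 3.78, and the pseudoreplicated list of replicate 2 held a region there with 4.16. The other, chr6:88203130-88203300, with its summit at 9.359 kb and a signal of 3.30, held the composite printed above, the kind of site for which the element is known. Which of them is the element was not tested. The archived regions nearest to the −2.8 and −1.8 elements had summits at −3.168 and −1.029 kb and signals of 3.06 and 3.10, and whether they are those elements was not tested. Absence from a list means only that no region passed at an unknown read depth.

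**Figure D3:**
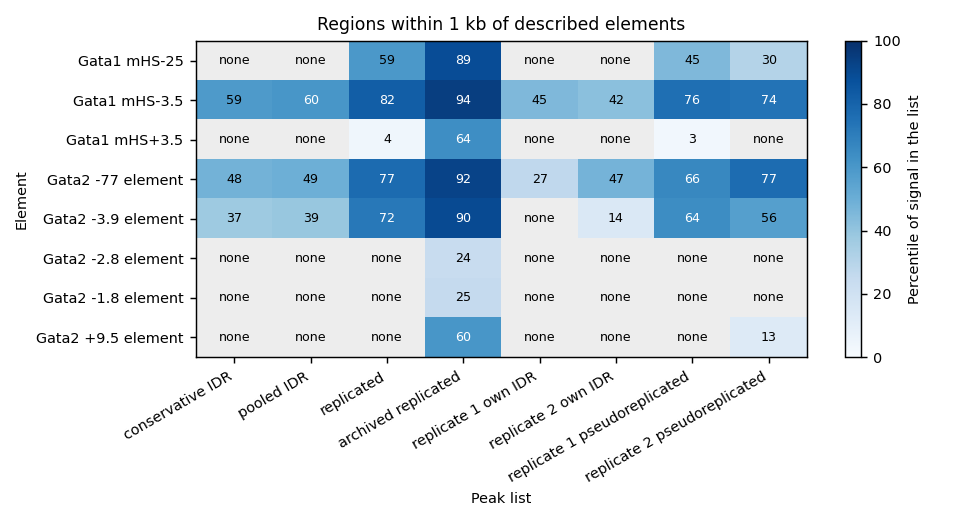
Percentile of the signal within each peak list (columns) of the region nearest to each described element (rows); "none" marks a list with no summit within 1 kb. Only mHS-3.5 and the −77 element have a value in every column. For the +9.5 element the archived value is that of chr6:88203405-88203628, not of the region that held the composite.

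The coding exons of Gata1 carried accessible regions. The conservative list held 2 regions with their summit in coding sequence and over 1 kb from a start, a class that made up 1.03% of that list, and 0.0274% of protein-coding genes had 2 or more. The region over exon 6, chrX:7959718-7960142, had a signal of 6.92 at percentile 14.2, with 6.00 in replicate 1 and 6.24 in replicate 2, and was called in the own list of replicate 1 alone. The region over exons 3 and 4, chrX:7961922-7962571, had a signal of 6.27 at percentile 9.82, with 6.15 in replicate 1 and 6.33 in replicate 2, and was called in both. These signals lie close to the 7.02 of the Gata1 promoter.

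In the archived list each of the 5 coding exons of the main transcript had a region of its own. Exon 2 had a signal of 5.49, exon 3 of 6.81, exon 4 of 3.67, exon 5 of 6.05 and exon 6 of 7.77. Each region ran past both edges of the coding part by 13 to 34 bp, with a median of 24 bp. At the last exon the region covered 32 of the 500 bp of the 3′ untranslated part. Together the regions covered 100% of the 1239 bp of coding sequence and 8.50% of the 2224 bp of the introns between. Exon 5, printed above, is the exon of the carboxy-terminal zinc finger, the finger that binds GATA motifs, and it had no region in the other 7 lists. Coverage of coding sequence was 72.1% in the conservative list and 86.3% in the replicated list, and by library it was 69.3% in the pseudoreplicated list of replicate 1 and 86.4% in that of replicate 2.

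**Figure D4:**
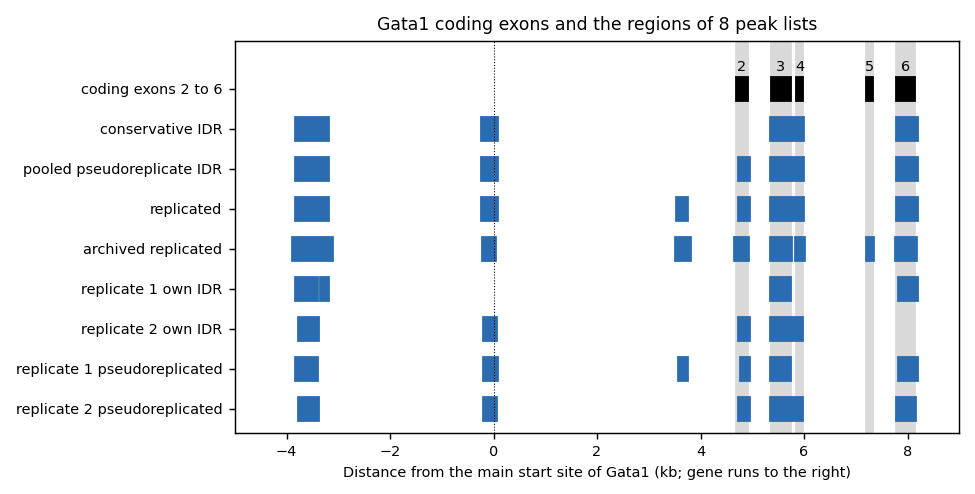
Coding exons 2 to 6 of Gata1 (black, top row, and grey bands) and the regions of 8 peak lists (blue rows) by distance from the main start in kb. In the archived list all 5 coding exons carry a separate region, and the introns between them are mostly bare.

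This pattern was rare among genes and absent from the other members. Of 16888 genes with 3 or more coding exons, 6, or 0.0355%, had every coding exon at least 50% covered in the archived list. Of the 13599 genes with 5 or more only Gata1 did, but 5 is its own number of coding exons, so that limit is fitted to it. Gata1 met the rule in the archived list alone. In the conservative list 0 genes met it, and in the replicated list 1 did, Mrpl53. The other 5 genes of the archived list, Gm20708, Ssna1, Mrpl53, Atpif1 and Lyrm2, have 3 coding exons each. Regions covered between 9.85% and 97.6% of their introns. In Gata2, regions of the archived list covered 18.0% of coding sequence and 17.0% of introns, and in Gata3 they covered 0% and 3.32%. The transgene carries GATA1 coding sequence, so reads from the transgene and from the endogenous exons have the same letters. Which copy gave the reads in the exons cannot be told apart in peak lists.

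**Figure D5:**
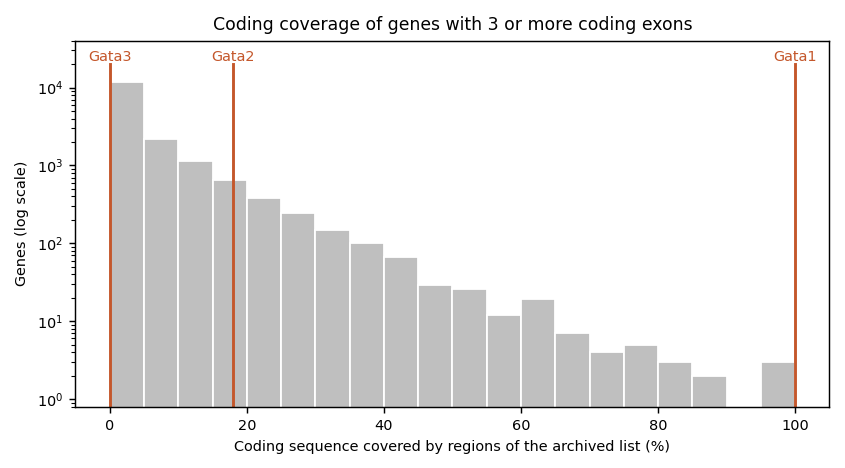
Number of genes with 3 or more coding exons (vertical log axis) by the share of coding sequence covered by regions of the archived list, in bins of 5%. Vertical lines mark Gata1 at 100%, Gata2 at 18.0% and Gata3 at 0%.

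Partners of the GATA factors were mostly marked by promoter regions. Of 13 partner and opposing genes 11 had one in the conservative list, against the 41.8% of all genes, and 9 had one in the own list of each library, with Cbfa2t3 in that of replicate 1 alone and Klf1 in that of replicate 2 alone. Their median was 5 distal regions within 100 kb, against 1 over all genes. They include Zfpm1, which encodes the cofactor FOG1, with 11 distal regions within 100 kb. Cbfa2t3 had 9, Runx1 8, Klf1, Lmo2 and Tcf3 7 each, and Tal1, Lyl1 and Spi1 5 each. Fli1 had 2, and Ldb1, Med1 and Zfpm2 had 0. Tal1, the factor that joins GATA1 in an activating complex, had a promoter region that neither library called alone. The genes without one were Zfpm2, the FOG2 gene of heart, and Fli1, a megakaryocyte factor. None of the family members Gata4, Gata5 and Gata6, which act in heart, gut and other non-blood tissues, had a promoter region, yet Gata5 had 9 distal regions within 100 kb and Gata4 had 5.

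The erythroid label was set against marker genes, in lists chosen with earlier results of these data known. Of 8 erythroid markers 7 had a promoter region in the conservative list, all but the heme synthesis gene Alas2, against the 41.8% of all genes. In the own list of each library 6 of the 8 had one. Klf1, an erythroid marker here, was also counted above with the partner and opposing genes, so both counts of promoter regions include it. Of the 6 markers of other blood lineages given here, among them Csf1r, Mpo and Cd3e, 0 had one in these lists. Spi1, counted above with the partner and opposing genes and not with these markers, had one in the conservative list and in the own list of each library.

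The genes most like each member were sought over 4 values, which were the distal regions within 100 kb and the percentile of the strongest promoter region in the own list of each library. For Gata1 they were Mrpl14 (distance 0.0139), Pds5a (0.0146) and Wdr26 (0.0671), in units of the SD over genes. For Gata3 they were Eaf1 and Mettl6, tied at 0.0611, and Nepro at 0.0687. Gata2 had 1 distal region in replicate 1, 2 in replicate 2 and no promoter region in either own list, and 513 genes had these same values.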

How the data were processed

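ATAC-seq peak lists of 2 libraries, replicates 1 and 2 of 1 group, were read, with the assembly mm10 per the labels. The aligner, peak caller, read filters and versions were not given in the sources used here, nor was read depth. The signal of each peak is the authors' enrichment value, of unstated scaling, and served for ranking and description inside a list. Signals of different lists stand side by side in the text, without a comparison of their size. The global IDR values printed were taken from −log10 values in the ranked lists deposited for each library. A −log10 p per peak, also deposited, was not used in the text. Per the deposited file list, the authors made a conservative list from true replicates, a pooled pseudoreplicate list, a replicated list, an older archived list, and for each library a pseudoreplicated list and one under the IDR threshold of 0.05.

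Overlapping peaks were merged into regions, and the strongest summit stood for a region. Starts were 54327 protein-coding transcript starts of GENCODE M21, and a summit within 1 kb of one made a promoter region, otherwise a distal one. Regions of different lists were matched at an overlap of 50% or more of the shorter one. Peak ends were checked to lie inside the chromosomes of GRCm38.p6, which gave the sequences. Python 3.11.15, pandas 2.3.3, numpy 2.4.6 and pysam 0.24.0 were used, and the functions were tested on simulated data. No test was run, since there is 1 group. The labels say nothing of separate cultures beyond calling the libraries biological replicates, so the spread between them may be partly technical. The named genes were the members, other genes with a promoter region in the windows, the partner and family list, the marker lists and the most alike genes. Dnajb8 and Gm38708 are named because regions lie in them, and the other 5 genes with every coding exon covered were named after their values were seen. In the marker lists, 1 marker of another blood lineage is not reported here. Members and lists were chosen with earlier results of these data known, and positions of described enhancers came from general knowledge. The comparison of coding coverage between genes was added after the regions were seen.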

Additional observations from a re-analysis of the deposited data

How the results depend on the processing

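Over 11 counts and 15 settings, 110 values were compared with those of the conservative list, and 52 lay within 1.5 times it. In the order Gata1, Gata2, Gata3, the archived list gave 30, 33 and 22 regions within 100 kb, 20, 29 and 17 distal regions and 2, 4 and 5 promoter regions, with 35 regions holding a GATA motif and 5 in coding exons of Gata1. The replicated list gave 16, 16 and 7 regions and 9, 15 and 5 distal regions, 2 promoter regions of Gata1 and 18 regions with a GATA motif. The pooled pseudoreplicate list gave 5 distal regions for Gata1 and 1 for Gata3. With regions above the median signal alone, Gata2 had 0 regions and 0 distal ones, Gata3 had 2 and 1, Gata1 had 1 distal region, promoter regions numbered 0, 0 and 1, GATA motifs 2 and coding-exon regions 0. Counting each summit gave 9 regions, 7 distal regions and 2 promoter regions for Gata2, and 9 regions and 6 promoter regions for Gata3. A window of 200 kb gave 19 regions and 5 distal ones for Gata1 and 8 regions for Gata2, and one of 50 kb gave 5 regions for Gata1. A promoter distance of 2 kb gave 2 promoter regions for Gata1 and 1 distal region for Gata3. The motif GATAA was in 1 region.

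Taking the own list of 1 library in place of both gave 9 regions for Gata1, 1 to 2 for Gata2 and 2 for Gata3, of which 3 to 4, 1 to 2 and 1 were distal. Promoter regions numbered 0 to 1, 0 and 1, regions with a GATA motif 4, and coding-exon regions of Gata1 2. Start sites of every transcript, added after seeing the data, gave 3 distal regions for Gata2 in place of 4 and moved no count by over 1.5 times. No paired analysis was possible because there is 1 group. Unknown read depth limits what an absent region means.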
